A study of Arabidopsis thaliana with 9 samples.

Results

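Nitrate is taken up by roots through transporters, reduced in the cytosol to nitrite by nitrate reductase and in plastids to ammonium by nitrite reductase, and the ammonium is fixed into glutamine by glutamine synthetase. The genes described here are 7 Arabidopsis genes of this route, chosen by their locus identifiers among the 37336 genes of the count tables. No measured value is part of that rule, but earlier results of these data were known when the genes were chosen. They encode the dual-affinity transporter and nitrate sensor *NRT1.1* (AT1G12110), the high-affinity transporters *NRT2.1* (AT1G08090) and *NRT2.2* (AT1G08100), the nitrate reductases *NIA1* (AT1G77760) and *NIA2* (AT1G37130), the nitrite reductase *NIR1* (AT2G15620) and the plastid glutamine synthetase *GLN2* (AT5G35630). Transcription of *NRT2.1*, *NIA1* and *NIR1* is known to respond to nitrate supply, and *NIA1*, *NIA2* and *GLN2* transcripts are also known to respond to light and sugar. *NRT2.1* and *NRT2.2* are known mainly from the outer cell layers of roots, while the enzymes of reduction and assimilation act in roots and in green tissue.

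The mRNA-seq libraries were from the T-DNA insertion mutant *zmp-2* (SALK_008955), the T-DNA insertion mutant *zmp-1* (SALK_066029) and WT, all in the Col-0 background, with 3 biological replicates per genotype. Each mutant is represented by 1 insertion line, and the mutations affect *ZMP*, which encodes a protein that associates with RNA polymerase IV. The labels describe the material of all 9 libraries as seedlings at an age of 12 days, from plants in 16 hours of light and 8 hours of dark at 23 °C, whereas the methods of the study name inflorescences for mRNA-seq and its text elsewhere names seedlings for the RNA-seq of the *zmp* alleles. Neither source gives the growth medium, its nitrate content or the hour of collection, and neither says whether roots were part of the material.

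All 7 genes lie in the nuclear genome, and none overlaps another annotated gene in TAIR10.1. *NRT1.1* spans 4105223 to 4109601 on the plus strand of chromosome 1 in 5 exons. On the same chromosome, *NRT2.1* (2524023 to 2526322, plus strand, 3 exons) and *NRT2.2* (2527170 to 2529120, minus strand, 3 exons) are neighbors that face each other tail to tail. *NIA1* (29235721 to 29239484, minus strand, 4 exons) and *NIA2* (14158452 to 14161938, plus strand, 3 exons) lie far apart on it. *NIR1* is on chromosome 2 from 6810395 to 6812941 on the plus strand, with 4 exons, and *GLN2* is on chromosome 5 from 13830429 to 13833542 on the plus strand, with 11 exons.

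Because only uniquely mapped read pairs were counted, the similarity of the gene copies decides how far a count near 0 can be read. The coding sequences of *NRT2.1* and *NRT2.2* have 89.4% identical bases (1403 of 1569 aligned). The longest run that they share is 170 bases, printed here in capitals with 12 bases on either side, from chr1:2524508-2524701 on the plus strand and chr1:2528522-2528715 on the minus strand, since it is the stretch in which a read could not be given to either copy.
NRT2.1: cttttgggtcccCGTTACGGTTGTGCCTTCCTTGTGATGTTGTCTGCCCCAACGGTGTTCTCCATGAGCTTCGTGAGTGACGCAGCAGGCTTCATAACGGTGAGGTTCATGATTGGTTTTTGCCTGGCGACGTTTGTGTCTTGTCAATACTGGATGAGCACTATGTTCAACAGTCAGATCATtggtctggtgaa
NRT2.2: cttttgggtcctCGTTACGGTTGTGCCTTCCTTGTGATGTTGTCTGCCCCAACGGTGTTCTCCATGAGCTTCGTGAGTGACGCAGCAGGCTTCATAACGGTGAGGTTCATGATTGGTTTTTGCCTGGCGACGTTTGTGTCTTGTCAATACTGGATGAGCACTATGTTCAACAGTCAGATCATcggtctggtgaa
The first difference on each side of the capitals is at the base next to them. Of the windows of 100 bases along the exons, 96.1% of those of *NRT2.1* and 95% of those of *NRT2.2* occurred once in the genome, so that nearly the whole of either transcript could give unique reads. The nitrate reductase genes are less alike, with 73.8% identical coding bases (2010 of 2724 aligned), and their longest shared run is 20 bases, in capitals below (chr1:29238730-29238773, minus strand, and chr1:14159193-14159236, plus strand).
NIA1: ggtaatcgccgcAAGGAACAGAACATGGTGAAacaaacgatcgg
NIA2: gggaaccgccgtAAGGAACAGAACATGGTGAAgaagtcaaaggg
For *NIA1*, *NIA2*, *NRT1.1*, *NIR1* and *GLN2*, 100% of these windows were unique, so the counts of the 2 nitrate reductase genes can be told apart.

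The libraries held 5815211 to 25182435 counts, of which chloroplast genes took 55.1% to 66.3%, and 3 counts, taken as the floor, correspond to 0.119 to 0.516 CPM (the count scaled to a common library total). *ZMP* itself had 1.5, 1.0 and 1.32 TMM-scaled CPM in *zmp-2*, 2.14, 3.00 and 2.83 in *zmp-1*, against 5.53, 6.76 and 7.48 in WT, so that the mutant libraries were all below the WT libraries. TMM-scaled CPM use the library size after edgeR's TMM scaling. After edgeR removed genes with low counts, its quasi-likelihood test was run on 18109 genes, and genes at or under 0.05 after Benjamini-Hochberg adjustment were called. Of the 7 genes, 5 passed the filter, and *NRT2.1* and *NRT2.2* did not.

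*NRT2.1* and *NRT2.2*, the high-affinity transporters, were at the edge of detection in all 9 libraries. *NRT2.1* had 1 count in *zmp-2* replicate 1, 1 count in *zmp-1* replicate 3 and 0 counts in the other libraries, a total of 2 among 115635654 counts, or 0.0173 CPM (exact Poisson upper limit 0.0625 CPM at 95% confidence). *NRT2.2* had 0 counts in every library, which allows up to 3 counts, or 0.0259 CPM, over all libraries together (one-sided 95% limit). The limit of *NRT2.1* is the upper end of a two-sided 95% interval, so the 2 limits are not of the same kind. These limits cover counting error only. No comparison between genotypes was possible for either gene at this depth. *NRT1.1* was counted 2568 times in the same libraries. Per length of exon, its pooled level was 1231 times that of *NRT2.1* (exact 95% counting interval 340.4 to 10170) and at least 664-fold higher than that of *NRT2.2*, taking 3 counts over all libraries as the floor. Other genes of the high-affinity system were also low. *NRT2.4*, known from nitrogen-starved plants, had 0 counts throughout, and *NRT3.1*, whose product is the partner protein that NRT2 transporters need, had 0.191 to 1.7 TMM-scaled CPM. The *NRT2* gene with the highest level was *NRT2.7*, a vacuolar nitrate transporter known from seeds, with 9.08 to 19.4 TMM-scaled CPM.

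Other genes of roots were low as well, with an exception. Of 19 root markers, 18 (all but *PYK10*) summed to 3.91 to 23.5 TMM-scaled CPM per library, and between 7 and 15 of the 19 had at least 3 counts. No root marker was at 0 in all libraries, and the root meristem gene *PLT2* came closest, with counts in WT replicate 2 and *zmp-2* replicate 3 alone. *IRT1*, the iron transporter of the root epidermis, had 0.572 to 1.84 TMM-scaled CPM, and *CASP1*, a membrane protein of the Casparian strip of the root endodermis, had 0.191 to 3.15. *PYK10*, a beta-glucosidase known from roots and hypocotyls, was the exception with 306 to 686 TMM-scaled CPM. The 6 leaf markers summed to 6990 to 9721 TMM-scaled CPM, whereas the 14 floral markers summed to 1.8 to 4.0, with *AG* and *A9* at 0 in all libraries. *ESB1* among the root markers and *SHP2* among the floral markers share 1772 and 1756 bases with another annotated gene, where read pairs can be lost, so their low counts cannot be read as low levels. The other floral markers, which include organ identity genes, were low but not all at 0. *SEP3* passed the filter and was counted in all 9 libraries, with 0.606 to 2.69 TMM-scaled CPM. *PI* had 53 counts over all libraries, and the remaining floral markers had fewer. In WT replicate 1 the floral sum was slightly above that of the 18 root markers, 3.91, and in each other library it was below. The sources do not say whether roots were removed from the seedlings.

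**Figure D1:**
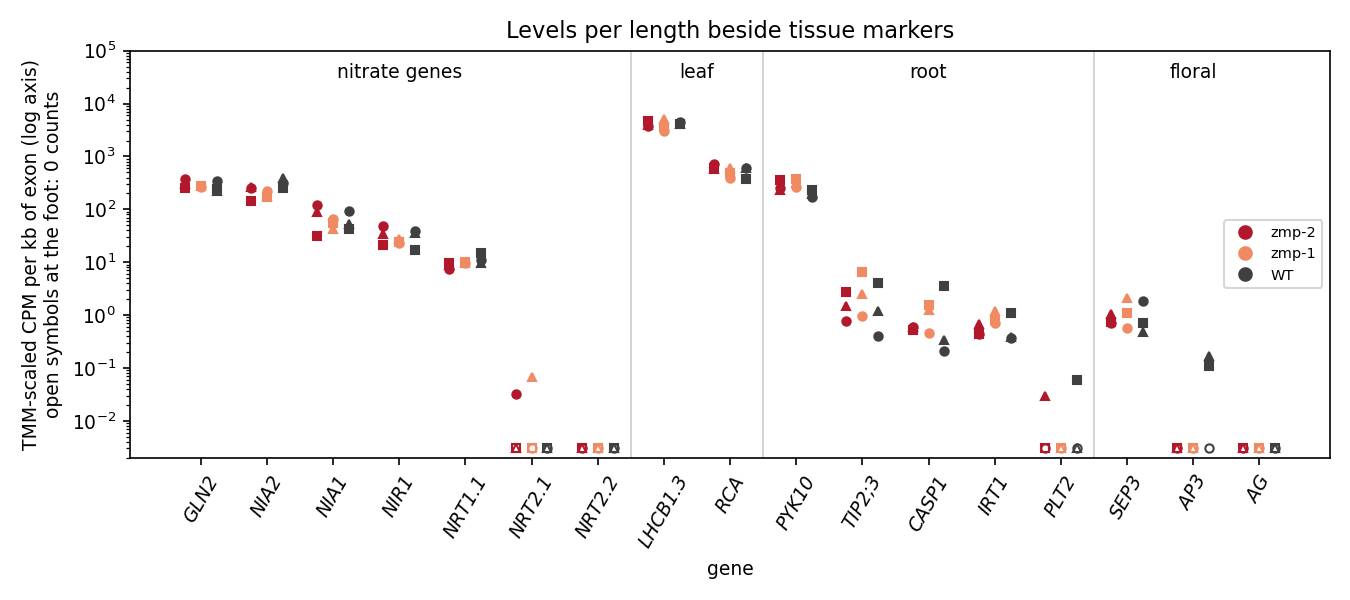
Levels per length of the 7 nitrate genes beside leaf, root and floral markers in each library, in TMM-scaled CPM per kb of exon on a log axis, with *zmp-2*, *zmp-1* and WT from left to right within each gene and a symbol shape per replicate. Open symbols at the foot mark libraries with 0 counts, and *NRT2.2* and *AG* sit there in all 9 libraries and *NRT2.1* in all but the 2 with 1 count each, while *NRT1.1* lies near 10.2 CPM per kb.

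Per length of exon, the order of the 5 genes that passed the filter was *GLN2*, *NIA2*, *NIA1*, *NIR1* and *NRT1.1*. Over the 9 libraries, *GLN2* had 284 ± 48.1 (SD) TMM-scaled CPM per kb and took rank 72 among the 17953 nuclear genes tested. *NIA2* followed with 244 ± 78.4 CPM per kb at rank 83. These 2 neighbors did not differ beyond their spread, since *GLN2* was higher in 7 of the 9 libraries and lower in the other 2, with ratios between 0.553 and 1.77. *NIA1* had 65.4 ± 28.8 CPM per kb (rank 429), *NIR1* had 29.9 ± 9.67 (rank 1104) and *NRT1.1* had 10.2 ± 2.05 (rank 3959). Each of these was lower than its upper neighbor in all 9 libraries, with *NIA2* 2.08 to 7.52 times *NIA1*, *NIA1* 1.47 to 2.81 times *NIR1*, and *NIR1* 1.16 to 6.5 times *NRT1.1*. *GLN2*, *NIA2*, *NIA1* and *NIR1* were thus each above at least 93.85% of these nuclear genes, and *NRT1.1* was above 77.9%. The other nitrogen genes followed here are not part of this order.

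The question of the genotype comparisons is whether loss of *ZMP* function went with other levels of these genes. In *zmp-2* against WT, 0 of the 5 tested genes were called, beside 32 of all 18109 genes tested (0.177%). In *zmp-1* against WT, 0 of the 5 were called, beside 8 of all genes (0.0442%), and in *zmp-2* against *zmp-1*, 0 of the 5, beside 4 of all genes (0.0221%). DESeq2 also called 0 of them in each comparison. At an unadjusted edgeR p-value under 0.05, 1 of the 5 genes passed in *zmp-2* (*NRT1.1*) against 12.1% of all genes, 1 in *zmp-1* (*NIA2*) against 9.16% of all genes, and 0 between the mutants against 4.36% of all genes. The libraries of the groups did not overlap for 1 of the 5 in *zmp-2* and for 1 in *zmp-1*, namely the same genes, and for 0 between the mutants, where 16.3%, 12.6% and 11.9% of all genes had groups that did not overlap. With 5 genes, these counts are near the background. All 3 comparisons share libraries, so the values of the mutants against WT are not independent of each other. The replicates are biological replicates according to the labels, which do not say how plants were divided among them.

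**Figure D2:**
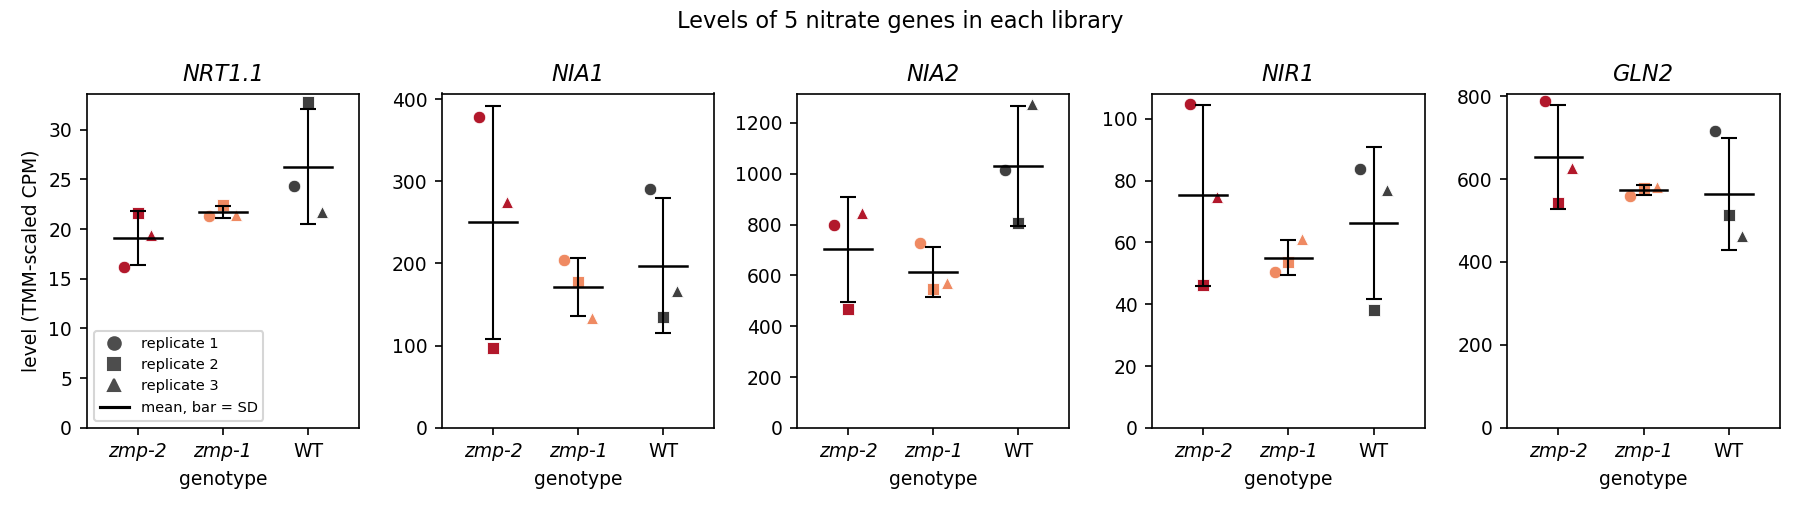
Levels of the 5 tested nitrate genes in each library, in TMM-scaled CPM, with *zmp-2*, *zmp-1* and WT from left to right. Points are libraries with a symbol shape per replicate, lines are means and bars are SD (n = 3), and the *NIA2* panel shows the 3 *zmp-1* libraries below the 3 WT libraries while the groups of *NIA1*, *NIR1* and *GLN2* overlap.

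*NRT1.1*, the transporter that also senses nitrate, had 16.2, 21.6 and 19.4 TMM-scaled CPM in *zmp-2*, 21.4, 22.4 and 21.4 in *zmp-1*, against 24.3, 32.8 and 21.7 in WT. The highest *zmp-2* library lay just below the lowest WT library, and WT replicate 2 stood above the other 8 libraries. For *NRT1.1*, edgeR gave −0.47 as the log2 fold change in *zmp-2* (95% confidence interval −0.86 to −0.08, edgeR adjusted p = 0.330, unadjusted p = 0.0229). In *zmp-1* it was −0.28 (interval −0.67 to 0.12, adjusted p = 0.669). WT replicate 2 was also the library with the highest sum of root markers without *PYK10*, 23.5 TMM-scaled CPM, against 3.91 and 6.77 in the other WT libraries, 4.85 to 7.86 in *zmp-2* and 6.41 to 18.2 in *zmp-1*. *PYK10*, left out of that sum, had 455, 651 and 423 TMM-scaled CPM in *zmp-2*, 479, 686 and 565 in *zmp-1*, against 306, 417 and 352 in WT. For *PYK10*, each mutant library was thus above each WT library. Groups that did not overlap were found for 16.3% of all genes in *zmp-2* and for 12.6% in *zmp-1*. Of the 6 root markers tested, 0 were called in either mutant, and *PYK10* had an edgeR adjusted p of 0.381 in *zmp-1*. Without WT replicate 2, the log2 fold change of *NRT1.1* was −0.27 in *zmp-2* (edgeR adjusted p = 0.511, unadjusted p = 0.140) and −0.08 in *zmp-1* (adjusted p = 0.872). The part of root tissue in the level of *NRT1.1* was not tested. In bulk samples, fewer cells of a type and less RNA per cell cannot be told apart.

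*NIA2*, the nitrate reductase with the larger share of transcripts here, had 797, 467 and 846 TMM-scaled CPM in *zmp-2*, 728, 547 and 569 in *zmp-1*, against 1014, 805 and 1275 in WT. Each *zmp-1* library was below each WT library, whereas the highest *zmp-2* library was above the lowest WT library. The mean was 703 ± 206 in *zmp-2*, 615 ± 98.5 in *zmp-1* and 1032 ± 236 in WT (SD, n = 3 each). For *NIA2*, the log2 fold change was −0.55 in *zmp-2* (95% confidence interval −1.11 to 0.00, edgeR adjusted p = 0.413, unadjusted p = 0.0506) and −0.75 in *zmp-1* (interval −1.30 to −0.19, edgeR adjusted p = 0.405, unadjusted p = 0.0128). Exact two-sided permutation tests of the means gave p = 0.2 for *zmp-2* and p = 0.1 for *zmp-1*, and 0.1 is the smallest p that 3 libraries against 3 allow. The sign was negative for both mutants under each of the 17 alternative fits, between −0.71 and −0.33 in *zmp-2* and between −0.90 and −0.57 in *zmp-1*. WT replicate 3 had the highest *NIA2* level. Without it, the log2 fold change was −0.37 in *zmp-2* (edgeR unadjusted p = 0.184) and −0.57 in *zmp-1* (edgeR unadjusted p = 0.0511). A p-value that misses the threshold does not show equal levels, and the intervals reach down to 0.464 times the WT level in *zmp-2* and 0.405 times in *zmp-1*.

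*NIA1*, the other nitrate reductase gene, was the most variable of the 5. It had 378, 97.5 and 275 TMM-scaled CPM in *zmp-2*, 204, 177 and 134 in *zmp-1*, against 291, 134 and 167 in WT. The groups overlapped throughout, and the highest *zmp-2* library was 3.88 times the lowest, against 1.52 times in *zmp-1* and 2.16 times in WT. The coefficient of variation that edgeR assigned to *NIA1* was 0.363, above that of 89.8% of all genes tested, while that of *NRT1.1* was 0.167, above that of 20.0%. EdgeR gave *NIA1* 0.34 as its log2 fold change in *zmp-2* (95% confidence interval −0.57 to 1.25) and −0.20 in *zmp-1* (interval −1.11 to 0.71), with edgeR adjusted p = 0.794 and 0.920. Its sign changed without *zmp-2* replicate 1 (−0.08 in *zmp-2*) and without WT replicate 1 (0.19 in *zmp-1*), so no direction is given.

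Per length, *NIA1* made up 32.5%, 17.5% and 24.8% of the summed nitrate reductase level in *zmp-2*, 22.2%, 24.8% and 19.3% in *zmp-1*, against 22.5%, 14.5% and 11.7% in WT. *NIA2* was thus the larger of the pair in every library. The mean share of *NIA1* was 25% ± 7.5 in *zmp-2*, 22.1% ± 2.74 in *zmp-1* and 16.3% ± 5.61 in WT (SD, n = 3 each). The difference from WT was 8.69 percentage points in *zmp-2*, above the SD of *zmp-2* and of WT. In *zmp-1* it was 5.83 percentage points, above the SD of *zmp-1* and close to that of WT. Both mutant groups overlapped with WT, and exact two-sided permutation tests gave p = 0.2 for *zmp-2* and p = 0.3 for *zmp-1*.

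**Figure D3:**
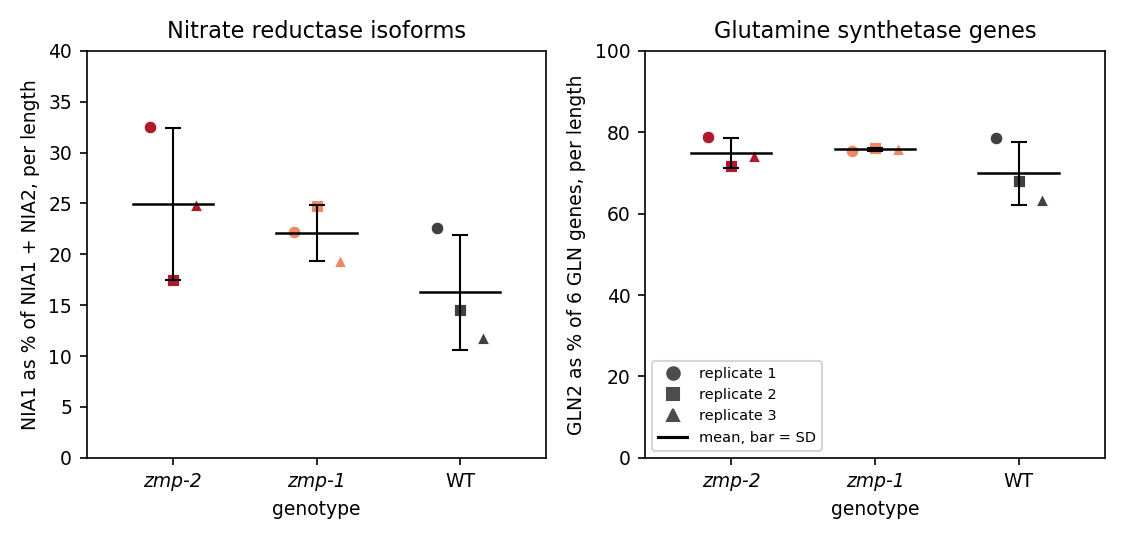
Share of *NIA1* in the summed level of *NIA1* and *NIA2* (left) and of *GLN2* in the summed level of 6 glutamine synthetase genes (right), in percent and per length of exon, for *zmp-2*, *zmp-1* and WT from left to right. Points are libraries, lines are means and bars are SD (n = 3), and the *NIA1* share lies between 11.7% and 32.5% with overlapping groups.

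*NIR1*, whose product reduces the nitrite that nitrate reductase makes, had 105, 46.3 and 74.5 TMM-scaled CPM in *zmp-2*, 50.5, 53.6 and 61.2 in *zmp-1*, against 83.6, 38.1 and 77.1 in WT. The groups overlapped, with the lowest library in WT and the highest in *zmp-2*. In *zmp-2*, *NIR1* stood at a log2 fold change of 0.19 (95% confidence interval −0.50 to 0.87, edgeR adjusted p = 0.861) and −0.27 in *zmp-1* (interval −0.96 to 0.43, adjusted p = 0.841). In *zmp-2* its sign was negative without WT replicate 2 (−0.10) and without *zmp-2* replicate 1 (−0.13). Against the summed nitrate reductase level per length, *NIR1* stood at a ratio of 0.130, 0.119 and 0.0968 in *zmp-2*, 0.0789, 0.108 and 0.127 in *zmp-1*, against 0.0933, 0.0591 and 0.0780 in WT. Each *zmp-2* library was above each WT library in this ratio (mean 0.115 ± 0.0168 against 0.0768 ± 0.0172), and the exact two-sided permutation test gave its smallest possible value, p = 0.1, and p = 0.2 for *zmp-1*. This ratio is the third of 3 ratios compared, each in 3 comparisons, and with 3 libraries a group none could pass 0.05.

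*GLN2*, which fixes the ammonium of nitrate reduction and of photorespiration in plastids, had 788, 542 and 626 TMM-scaled CPM in *zmp-2*, 560.0, 579 and 580.5 in *zmp-1*, against 716, 514 and 462 in WT. The *zmp-1* libraries were within 1.04-fold of each other, and they fell inside the range of the WT libraries. The log2 fold change was 0.21 in *zmp-2* (95% confidence interval −0.24 to 0.66, edgeR adjusted p = 0.739) and 0.02 in *zmp-1* (interval −0.43 to 0.48, adjusted p = 0.986), and the sign in *zmp-1* turned without WT replicate 2 (−0.04) and without WT replicate 3 (−0.10). Among the glutamine synthetase genes, *GLN2* took 78.9%, 71.7% and 74.2% of the summed level per length in *zmp-2*, 75.4%, 76.2% and 75.8% in *zmp-1*, against 78.5%, 68.0% and 63.4% in WT. The mean shares were 74.9% ± 3.67 in *zmp-2*, 75.8% ± 0.410 in *zmp-1* and 70.0% ± 7.73 in WT (SD, n = 3 each), and exact two-sided permutation tests against WT gave p = 0.4 for each mutant. The next of the cytosolic genes was *GLN1;2*, with 67.5 CPM per kb over all libraries.

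**Figure D4:**
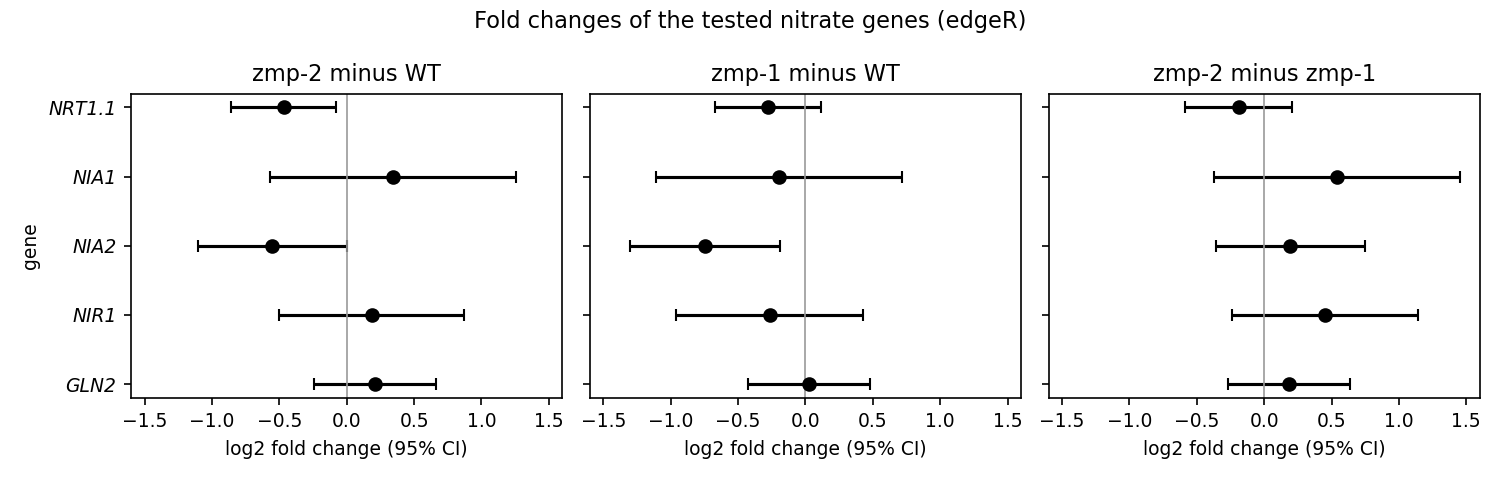
Log2 fold changes of the 5 tested nitrate genes with 95% confidence intervals from edgeR, for *zmp-2* minus WT, *zmp-1* minus WT and *zmp-2* minus *zmp-1*. The interval lies below 0 for *NRT1.1* in *zmp-2* and for *NIA2* in *zmp-1*, neither of which passed after adjustment, and the intervals of *NIA1* are the widest in each panel.

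Between the mutants, the intervals of all 5 genes included 0. The log2 fold change of *zmp-2* over *zmp-1* was 0.54 for *NIA1* (95% confidence interval −0.37 to 1.45), 0.45 for *NIR1* (−0.24 to 1.14), 0.19 for *NIA2* (−0.36 to 0.75), 0.19 for *GLN2* (−0.27 to 0.64) and −0.19 for *NRT1.1* (−0.58 to 0.21), each with an edgeR adjusted p of 1.00. The effects of the 2 alleles on these genes were thus not shown to differ.

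Over the 9 libraries, the Pearson correlation of log2 CPM was 0.80 between *NIA1* and *NIR1*, 0.78 between *NIA1* and *GLN2*, 0.65 between *NIR1* and *GLN2*, 0.50 between *NIA1* and *NIA2* and 0.52 between *NIA2* and *NIR1*. *NIA2* and *GLN2* had −0.01. *NRT1.1* had negative values with *NIR1* (−0.71), *NIA1* (−0.51) and *GLN2* (−0.51) and 0.06 with *NIA2*. These are descriptions over 9 libraries of 3 genotypes, and the values of a library share its depth and scaling.

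For each of the 5 genes, the 3 genes of the other 18108 tested whose log2 CPM had the highest Pearson correlation over the 9 libraries were taken. For *NRT1.1* they were *CXIP4* (0.96), *UTR6* (0.95) and AT5G41400 (0.95). For *NIA1* they were AT4G01310 (0.96), *NAP7* (0.96) and *GATB* (0.96), and for *NIA2* AT2G47680 (0.98), AT4G39140 (0.96) and *FIP1[V]* (0.96). *NIR1* was most like AT3G15110 (0.98), *DHS2* (0.97) and AT4G38225 (0.97), and *GLN2* was most like *RPL9* (0.96), *PHR2* (0.95) and AT3G05410 (0.95). None of the other nitrogen genes followed here was among them. These values are the top of 18108 for each gene, over libraries that share depth and scaling.

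The rest of the pathway was followed in 66 genes of nitrate and ammonium transport, ammonium assimilation, cofactor and reductant supply, and nitrate signaling, of which 60 passed the filter. In *zmp-2* against WT, 1 of the 60 was called, and it was lower, beside 0.177% of all genes. DESeq2 called 3 there (*ASN1*, *GDH2* and *BT1*, all lower), and an edgeR fit of the 6 libraries compared called 0. At an unadjusted p-value under 0.05, 2 were higher and 9 lower in *zmp-2*, against 12.1% of all genes. In *zmp-1*, 0 were called with edgeR and with DESeq2, and 2 were higher and 9 lower at an unadjusted p-value under 0.05, against 9.16% of all genes. Between the mutants, 0 were called with edgeR and 1 with DESeq2, and 1 was higher and 3 lower in *zmp-2* at an unadjusted p-value under 0.05, against 4.36% of all genes. The median log2 fold change of the 60 genes was −0.08 in *zmp-2*, −0.07 in *zmp-1* and −0.07 between the mutants, beside −0.02, −0.01 and 0.00 for all genes, while the 5 nitrate genes had medians of 0.19, −0.27 and 0.19.

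The called gene was *ASN1*, an asparagine synthetase gene known to be induced in the dark. *ASN1* had 119, 88.7 and 103 TMM-scaled CPM in *zmp-2*, 242, 266 and 181 in *zmp-1*, against 276, 286 and 208 in WT. All *zmp-2* libraries were below all *zmp-1* and WT libraries, and *zmp-1* overlapped with WT. The log2 fold change was −1.31 in *zmp-2* (95% confidence interval −1.75 to −0.86, edgeR adjusted p = 0.0355), a 2.47-fold lower level, and −0.16 in *zmp-1* (interval −0.60 to 0.28, adjusted p = 0.847). The direct comparison of *zmp-2* with *zmp-1* gave −1.15 (interval −1.59 to −0.70, edgeR adjusted p = 0.331, DESeq2 adjusted p = 5.55e-05), so the call of a difference between the alleles depended on the tool. The call against WT was lost in a fit of the 6 libraries compared (edgeR adjusted p = 0.101) and without any of the *zmp-2* libraries (0.0762, 0.176 and 0.143 without replicates 1, 2 and 3), *zmp-1* replicate 1 (0.0653) or *zmp-1* replicate 2 (0.0724), while the fold change stayed between −1.43 and −1.21 in all 17 alternative fits.

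Among the 17 transporter genes tested, 0 were called, and the median log2 fold change was 0.07 in *zmp-2* and 0.05 in *zmp-1*. The extremes were *NAXT1*, a nitrate excretion transporter of roots, at 1.2 in *zmp-2* (edgeR adjusted p = 0.20), *NRT2.6* at 0.59 in *zmp-1* (adjusted p = 0.796), and *NRT1.8*, which removes nitrate from the xylem sap, at −1.54 in *zmp-2* (adjusted p = 0.281) and −1.04 in *zmp-1* (adjusted p = 0.578). *NRT1.8* had 2.19, 1.85 and 2.05 TMM-scaled CPM in *zmp-2*, 3.56, 2.83 and 1.98 in *zmp-1*, against 4.10, 1.97 and 12.0 in WT, so WT replicate 3 stood apart. Without that library, the log2 fold change of *NRT1.8* was −0.55 in *zmp-2* (edgeR adjusted p = 0.704) and −0.05 in *zmp-1* (adjusted p = 0.994). *CLC-A*, the nitrate and proton exchanger of the vacuole, had the highest level of the list with 28.5 CPM per kb. The ammonium transporter gene *AMT1;1* had 0 counts in every library. It shares 1709 bases with AT4G13505, which also had 0 counts. Read pairs on overlapping genes are not counted when strand is ignored, and the strand setting is not given in the sources used here, so this 0 was not taken as its level.

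The 12 tested genes of ammonium assimilation had a median log2 fold change of −0.32 in *zmp-2* and −0.22 in *zmp-1*. At an unadjusted p-value under 0.05, 4 were lower and 0 higher in *zmp-2*, against 12.1% of all genes. In *zmp-1*, 3 were lower and 0 higher, against 9.16% of all genes. Each of these 3 had its highest level of any library in WT replicate 3, so their low values in *zmp-1* share that library. Beside *ASN1*, the lowest value in *zmp-1* was that of *GDH2*, a glutamate dehydrogenase gene, at −0.94 (edgeR adjusted p = 0.384). The highest was in both mutants that of *GLU1*, the ferredoxin-dependent glutamate synthase that works with *GLN2*, at 0.45 in *zmp-2* (adjusted p = 0.485) and 0.21 in *zmp-1* (adjusted p = 0.834). *GLU1* also had the highest level of the list with 107 CPM per kb.

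The 12 genes of molybdenum cofactor, siroheme and reductant supply, which nitrate and nitrite reductase need, were all tested, and 0 were called. Their median log2 fold change was −0.08 in *zmp-2* and −0.10 in *zmp-1*. At an unadjusted p-value under 0.05, 0 of the 12 passed in *zmp-2*, against 12.1% of all genes, and 5 in *zmp-1*, all lower, against 9.16% of all genes. Each of these 5 had its highest level of any library in WT replicate 3, so their low values in *zmp-1* share that library. The libraries of the groups did not overlap for 1 of the 12 in *zmp-2*, against 16.3% of all genes, and for 5 in *zmp-1*, against 12.6%. *RFNR1*, a root-type ferredoxin reductase gene, had the lowest values, −0.85 in *zmp-2* (edgeR adjusted p = 0.413) and −1.40 in *zmp-1* (adjusted p = 0.344), with 33.6 TMM-scaled CPM in WT replicate 3 against 5.48 to 12.9 in the other 8 libraries. Without that library they were −0.09 in *zmp-2* and −0.64 in *zmp-1*. The highest values were those of *CNX7* in *zmp-2* (0.58, adjusted p = 0.690) and *CNX3* in *zmp-1* (0.31, adjusted p = 0.721), both of molybdenum cofactor synthesis. *UPM1*, which starts the branch to siroheme, had the highest level with 14.0 CPM per kb.

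Of the 20 regulators, 19 were tested, 0 were called, and the median log2 fold change was −0.04 in *zmp-2* and 0.02 in *zmp-1*. *HRS1*, a repressor of the NIGT1 family, had the lowest values, −0.99 in *zmp-2* (edgeR adjusted p = 0.30) and −0.70 in *zmp-1* (adjusted p = 0.583), with 14.96 TMM-scaled CPM in WT replicate 2 against 4.09 to 8.48 in the other 8 libraries. Without that library they were −0.48 in *zmp-2* and −0.20 in *zmp-1*. The highest were *HY5*, a bZIP factor of light signaling, at 0.62 in *zmp-2* (adjusted p = 0.583) and *HHO3*, another NIGT1-family repressor, at 0.56 in *zmp-1* (adjusted p = 0.402). *BT2*, a BTB and TAZ domain protein gene, had the highest level of the list with 178 CPM per kb.

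**Figure D5:**
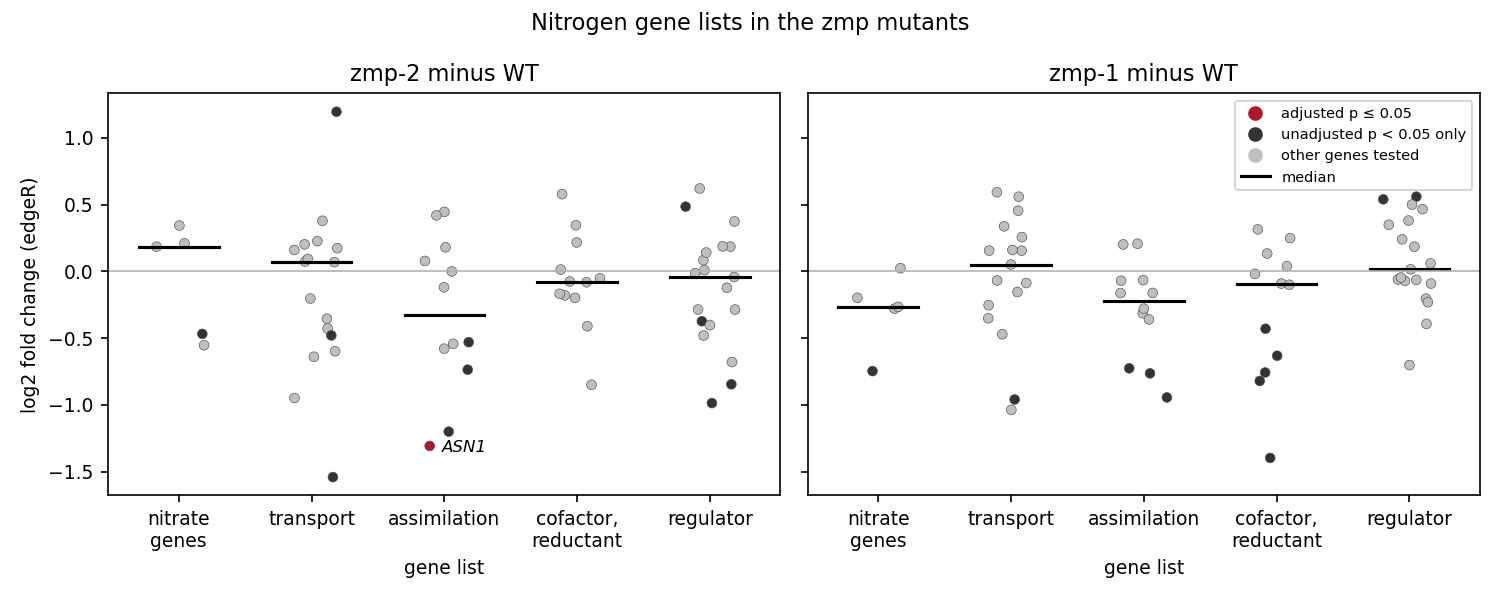
Log2 fold changes from edgeR of the tested nitrate genes and of the tested genes of 4 further nitrogen lists, for *zmp-2* minus WT (left) and *zmp-1* minus WT (right). Each point is a gene, lines are list medians, dark points have an unadjusted p-value under 0.05, and *ASN1* in *zmp-2* at −1.31 is the only gene called (adjusted p ≤ 0.05).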

How the data were processed

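The mRNA-seq files hold 1 count table per library. The authors used Trim Galore for adapter removal and STAR 2.5.3a for mapping to TAIR10 with Araport11 gene models, and the deposited values are STAR's raw counts per gene of read pairs with a unique position, not normalized. Whether the counting used strand is not given in the sources used here. Chloroplast genes took 55.1% to 66.3% of the counts, so nuclear genes rest on the remainder.

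Groups came from the sample labels. In R 4.3.3 with edgeR 4.0.16, genes were filtered with filterByExpr (18109 of 37336 kept), scaled with TMM and fitted with the quasi-likelihood model to all 9 libraries with 1 coefficient per genotype. Tests were two-sided, with Benjamini-Hochberg adjustment over all genes tested. The coefficient of variation common to all genes was 0.234. Levels between genes were compared per kb of the union of exons in TAIR10.1, the build of the coordinates and sequences, credited to RefSeq. Log2 CPM for correlations had a prior count of 2. Libraries differed by more than sampling noise in all 36 pairs, within and between genotypes (chi-square per degree of freedom at least 7.13). The procedure was tested on simulated data.

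The labels number the replicates 1 to 3 in each genotype. Deviations from the group means of libraries with the same number correlated at 0.277, 0.209 and 0.128 between *zmp-2* and WT, so a fit with the number as a block was run as an alternative. The pairing comes from the numbers and these correlations only.

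The 7 genes and all lists were chosen with earlier results of these data known. Text names the 7 genes and *ZMP*. Of the 4 further nitrogen lists it names each called gene, the highest and lowest fold change of each list in either mutant, and the gene with the highest level. It also names the 3 genes most correlated with each tested gene, and markers needed for a range or a 0. *NRT2.4*, *NRT2.7*, *NRT3.1*, *GLN1;2*, *AMT1;1*, *BT1*, *ESB1* and *SHP2* were named after their values were seen. *NRT1.8*, *CLC-A*, *GLU1*, *ASN1*, *CNX7* and *UPM1* overlap an annotated neighbor by 11 to 203 bases, where read pairs can be lost. Alternatives were DESeq2 1.42.0, upper-quartile scaling, library size alone, no filter, at least 10 counts in every library, organelle genes left out, the 6 libraries compared, the replicate block, each library left out, a stricter threshold (adjusted p ≤ 0.01) and a minimum change of 2-fold.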

Additional observations from a re-analysis of the deposited data

How the results depend on the processing

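The number of called genes among the 5 tested nitrate genes was 0 in each comparison under each alternative, with 0 to 2 genes at an unadjusted p-value under 0.05. Of the other 60 nitrogen genes, 1 was called in *zmp-2* against WT. DESeq2 called 3 (*ASN1*, *GDH2* and *BT1*), the fit of the 6 libraries compared called 0, an adjusted p-value of at most 0.01 left 0, and leaving out a library gave 0 to 1. Between the mutants, DESeq2 called 1 (*ASN1*) instead of 0. Signs turned for *NIA1* in *zmp-1* without WT replicate 1 (0.19, range without a library −0.41 to 0.19) and in *zmp-2* without *zmp-2* replicate 1 (−0.084, range −0.084 to 0.73), for *NIR1* in *zmp-2* without WT replicate 2 (−0.10) and without *zmp-2* replicate 1 (−0.13, range −0.13 to 0.44), and for *GLN2* in *zmp-1* with library size alone (−0.073), without WT replicate 2 (−0.039) and without WT replicate 3 (−0.10, range −0.10 to 0.23). The cause was not tested. None of these values was called. Of 559 alternative fold changes of named genes, 545 kept their sign and their side of the threshold. Library size alone moved the median of all genes by −0.11 in *zmp-1* against WT, which is more than it moved *GLN2*, so relative to all genes the sign of *GLN2* did not turn under this scaling.

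With the replicate number as a block, 0 of the 5 nitrate genes and 1 of the 60 other genes were called in *zmp-2* against WT, and the block changed no other call. In that fit, *NIA2* stood at −0.57 in *zmp-2* (edgeR adjusted p = 0.296). Same-numbered libraries correlated at 0.057, 0.039 and 0.046 between *zmp-1* and WT and at 0.143, −0.083 and −0.085 between the mutants. *NRT2.1* and *NRT2.2* had too few counts for their levels to be compared between genotypes.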

Other observations

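*GDH2* and *BT1* were called lower in *zmp-2* by DESeq2 and not by edgeR. *BT1* is outside the rule for named genes and was chosen after its values were seen. *GDH2* had 95.5, 49.7 and 90.5 TMM-scaled CPM in *zmp-2*, 96.2, 113 and 72.1 in *zmp-1*, against 126, 160 and 256 in WT. Each mutant library was thus below each WT library, while 16.3% of all genes in *zmp-2* and 12.6% in *zmp-1* had groups that did not overlap. *GDH2* was highest in WT replicate 3, and its log2 fold change in *zmp-1* lay between −1.15 and −0.61 in the 17 alternative fits. Its edgeR adjusted p was 0.178 in *zmp-2* (log2 fold change −1.20) and 0.384 in *zmp-1* (−0.94), and DESeq2 gave an adjusted p of 0.0105 in *zmp-2*. *BT1*, a BTB and TAZ domain protein gene, had 88.1, 73.0 and 93.9 TMM-scaled CPM in *zmp-2*, 142, 153 and 143 in *zmp-1*, against 145, 206 and 106 in WT. Its log2 fold change in *zmp-2* was −0.85, with an adjusted p of 0.196 in edgeR and 0.0225 in DESeq2. *ASN1*, *GDH2* and *BT1* are known as genes whose transcripts respond to dark or sugar supply. Whether light or sugar had a part in their levels here was not tested. *BT2*, the other BTB and TAZ domain protein gene of the list, had mean TMM-scaled CPM of 427 in *zmp-2*, 552 in *zmp-1* and 424 in WT.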
